A study of Mus musculus with 4 samples.

Results

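The border macrophage genes described here are 9 named genes, Mrc1, Pf4, Cd163, Lyve1, F13a1, Ms4a7, Dab2, Cbr2 and Stab1. They were chosen by name, with the CPM (read counts scaled to library size) of Mrc1 and Pf4 in these same libraries known. They were found by symbol in the deposited read counts of brain endothelial cells, and make up 9 of the 17905 genes listed there. Border macrophages are the resident macrophages of the meninges, the choroid plexus and the spaces around brain vessels. They arise from early embryonic progenitors as microglia do, depend on the receptor CSF1R, and lie against the outer wall of vessels. They are known for uptake of proteins, haemoglobin and hyaluronan from the fluid around vessels, and in the mouse brain the 9 genes are used to tell them from microglia. Whether the 9 genes do so at embryonic day 18, the age of these samples, was not tested. Outside macrophages, Stab1 and Lyve1 are also used as markers of sinusoidal and lymphatic endothelium, Pf4 and F13a1 are also platelet genes, and Dab2 is active in many cell types.

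The samples were endothelial cells of C57BL/6 mouse brain at embryonic day 18, profiled by RNA sequencing in 2 libraries of the genotype STINGECKO (replicates 1 and 2) and 2 libraries of WT (replicates 3 and 5). The design speaks of triplicates, and 2 libraries of each genotype were analysed here. STINGECKO is read here as a knockout of STING in endothelial cells; STING is an adaptor of cytosolic DNA sensing encoded by Tmem173. The Cre driver, the deleted exons and any pooling of embryos are not stated in the labels. The labels do not say whether libraries of a genotype came from separate embryos; the sex-linked genes below differ between the STINGECKO libraries, so these did not come from 1 embryo, and for WT the spread may be technical.

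Listed reads ran from 18610298 (STINGECKO 1) to 22169261 (STINGECKO 2), so 1 read was worth 0.0545 CPM at most. Tmem173 was at 3.65 and 8.32 CPM in the STINGECKO libraries and 4.49 and 6.27 in WT, and so did not separate the labels. Y-linked Ddx3y had 3623 reads in STINGECKO 1 and was at or below 4 reads in the other libraries, while Xist had 0 reads in STINGECKO 1 alone. STINGECKO 2 stood apart by its zeros: 13.2% of the 14100 genes listed in both tables had 0 reads there, against 2.68% in STINGECKO 1, 5.25% in WT 3 and 2.39% in WT 5. Markers of endothelium were abundant throughout, with summed levels of 10 genes at 21500 and 23140 CPM in STINGECKO and 21080 and 20570 CPM in WT. Levels are given by library, and fold changes of the 9 genes and list medians also without WT 5 or without STINGECKO 2 where these move them.

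All 9 genes were at their highest level in WT 5, and 7 of them were several-fold lower in the other 3 libraries. The 7 were Mrc1, Pf4, Cd163, Lyve1, F13a1, Ms4a7 and Cbr2, whose summed level was 111 and 52.1 CPM in STINGECKO 1 and 2, and 109 and 927 CPM in WT 3 and 5. Stab1 and Dab2 together were at 483 and 676 CPM in STINGECKO and 695 and 890 CPM in WT. The grouping into 7 and 2 genes was made after these values were seen. Because the genes were chosen with levels in WT 5 known, these levels are a description with no test. Of all 14100 genes in both tables, 24.3% were highest in WT 5. In RNA from many cells, fewer macrophages and less RNA per macrophage cannot be told apart.

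**Figure D1:**
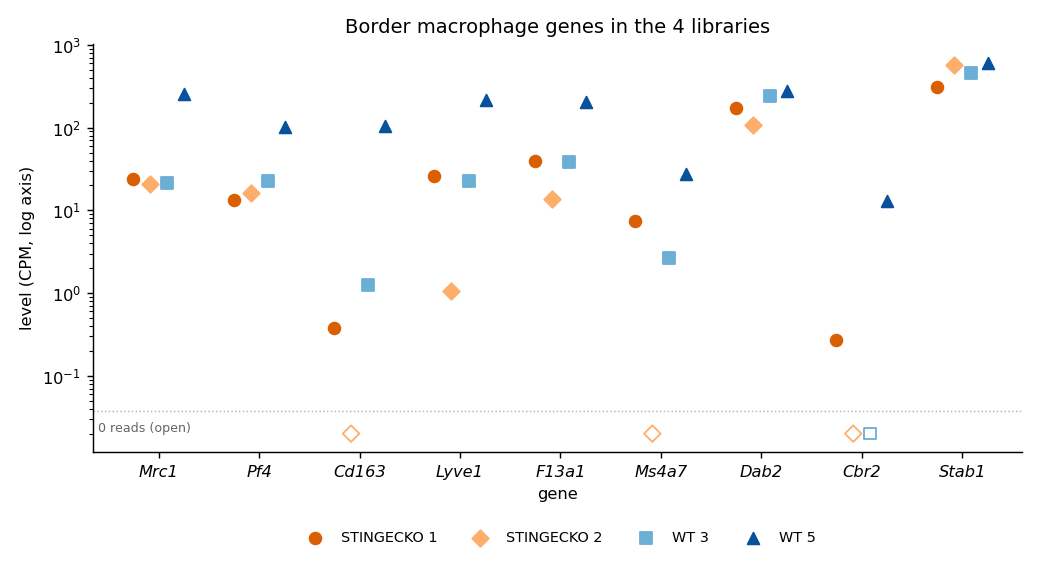
Level of each of the 9 genes (CPM, log axis) in STINGECKO 1, STINGECKO 2, WT 3 and WT 5, with 0 reads drawn as open symbols below the dotted line. The WT 5 triangle is the highest point of every gene, by 11.9-fold over WT 3 for Mrc1 and by 1.14-fold for Dab2.

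Mrc1 encodes the mannose receptor CD206, an endocytic lectin (ENSMUSG00000026712, chromosome 2, 14229392 to 14332057, plus strand, GRCm38). It was at 24.3 and 20.99 CPM in STINGECKO 1 and 2, and at 21.7 and 258 CPM in WT 3 and 5, from 445, 459, 469 and 5342 reads. STINGECKO 1, STINGECKO 2 and WT 3 thus lay close together and WT 5 far above them, and the genotypes overlapped. The mean was 22.6 ± 2.31 CPM in STINGECKO and 139.7 ± 167 CPM in WT (SD, n = 2 each), so that the SD of WT was larger than its mean.

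Cd163 encodes a scavenger receptor that takes up haemoglobin (ENSMUSG00000008845, chromosome 6, 124304656 to 124330527, plus strand). It had 7 and 0 reads in STINGECKO 1 and 2, and 27 and 2155 reads in WT 3 and 5, or 0.382, 0, 1.25 and 104 CPM. Only WT 5 held more than a trace of it. The genotypes did not overlap, but WT 3 lay nearer to both STINGECKO libraries than to WT 5.

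Lyve1 encodes a receptor for hyaluronan, the large sugar polymer of the matrix (ENSMUSG00000030787, chromosome 7, 110850607 to 110863239, minus strand). Its level was 26.2 and 1.05 CPM in STINGECKO 1 and 2, and 22.7 and 215 CPM in WT 3 and 5. STINGECKO 1 lay slightly above WT 3, so the genotypes overlapped, and STINGECKO 2 stood well below all others. With 23 reads, STINGECKO 2 kept about 1 CPM, while Mrc1 was at 20.99 CPM in the same library.

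Stab1 encodes stabilin-1, a scavenger receptor for modified lipoproteins and matrix proteins (ENSMUSG00000042286, chromosome 14, 31139013 to 31168641, minus strand). It was at 309.5 and 567 CPM in STINGECKO 1 and 2, and at 453 and 613 CPM in WT 3 and 5. Its order was WT 5, STINGECKO 2, WT 3 and STINGECKO 1, so both genotypes spanned much the same range. The means of 438 ± 182 CPM in STINGECKO and 533 ± 113 CPM in WT (SD, n = 2 each) lay within that spread. Its exons share 112 bases with Nt5dc2 on the opposite strand, and reads there cannot be assigned without strand.

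Dab2 encodes an adaptor that brings cargo receptors into clathrin-coated pits (ENSMUSG00000022150, chromosome 15, 6299788 to 6440712, plus strand). Its levels were 174 and 109 CPM in STINGECKO 1 and 2, and 242 and 277 CPM in WT 3 and 5. The genotypes did not overlap, and for Dab2 WT 3 lay close to WT 5 and not to STINGECKO. The means were 141 ± 45.6 CPM in STINGECKO and 259 ± 24.5 CPM in WT (SD, n = 2 each). It shares 211 exon bases with Gm18888 on the opposite strand.

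Pf4 and F13a1 encode secreted proteins. Pf4 is the chemokine CXCL4 (ENSMUSG00000029373, chromosome 5, 90772435 to 90773383, plus strand) and was at 13.3 and 16.2 CPM in STINGECKO 1 and 2, and at 22.5 and 103 CPM in WT 3 and 5. Its genotypes did not overlap, with WT 3 above STINGECKO 2 and well below WT 5. F13a1 is the catalytic subunit of factor XIII, a transglutaminase that cross-links fibrin (ENSMUSG00000039109, chromosome 13, 36867178 to 37050244, minus strand), and was at 39.4 and 13.8 CPM in STINGECKO 1 and 2, and at 38.2 and 206 CPM in WT 3 and 5. Its genotypes overlapped, since STINGECKO 1 lay just above WT 3. F13a1 shares 74 exon bases with Gm30489 on the opposite strand.

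Ms4a7, a membrane protein whose transcript is used to mark border macrophages rather than microglia in mouse brain (ENSMUSG00000024672, chromosome 19, 11321039 to 11336146, minus strand), had 135 and 0 reads in STINGECKO 1 and 2, and 58 and 577 reads in WT 3 and 5. In CPM this was 7.36 and 0, and 2.68 and 27.8, so STINGECKO 1 was above WT 3. Cbr2, a carbonyl reductase of the short-chain dehydrogenase family (ENSMUSG00000025150, chromosome 11, 120729489 to 120732114, minus strand), had 5 and 0 reads in STINGECKO 1 and 2, and 0 and 267 reads in WT 3 and 5. It was the rarest member by reads, and WT 5 alone reached 1 CPM, at 12.9. Zeros were common in STINGECKO 2. Where the other libraries averaged 1 to 5 CPM, as for Cbr2, 36.2% of genes were without reads in STINGECKO 2, against 15.3% in WT 3. Where the other libraries averaged 5 to 20 CPM, as for Ms4a7, 15.7% were without reads in STINGECKO 2, against 4.51% in WT 3.

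Per length, as reads per kilobase of exon, scaled to library size (RPKM), the order of the 9 genes also differed between libraries. In WT 5 Pf4 led at 143 RPKM, followed by Lyve1 at 73.8, Stab1 at 59.6, Mrc1 at 40.4, Dab2 at 37.7, F13a1 at 30.6, Cd163 at 19.0, Cbr2 at 9.70 and Ms4a7 at 6.25. In STINGECKO 1, STINGECKO 2 and WT 3 Stab1 led, at 30.1, 55.2 and 44.0 RPKM, with Dab2 and Pf4 next in either order. Mrc1 was at 3.81, 3.29 and 3.40 RPKM in those libraries, near the middle of all genes, at percentiles 47.1, 47.1 and 44.5 of the RPKM in its library. In WT 5 it was at percentile 90.3. Stab1 lay at percentiles between 87.2 and 93.6 throughout.

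Upstream sequence is shown for the members whose 250 bases before the start hold the letters GAGGAAG, the core of a site for ETS factors such as PU.1, the master regulator of macrophages, and for Stab1 as the member whose centred log2 CPM spanned the smallest range over the libraries. The sequences are RefSeq's on GRCm38.p6, the build of the deposited positions, and 8 of the 9 members had an entry; Lyve1 had none. Each is read 5′ to 3′ on the strand of its gene and ends just before the start that RefSeq annotates, with motif matches in capitals: GAGGAAG or its reverse complement CTTCCTC in Mrc1, Pf4, F13a1 and Cbr2, the GATA letters GATAAG in F13a1, and the MAF letters TGCTGA in Stab1.
Mrc1 (chr2:14229164-14229413, plus): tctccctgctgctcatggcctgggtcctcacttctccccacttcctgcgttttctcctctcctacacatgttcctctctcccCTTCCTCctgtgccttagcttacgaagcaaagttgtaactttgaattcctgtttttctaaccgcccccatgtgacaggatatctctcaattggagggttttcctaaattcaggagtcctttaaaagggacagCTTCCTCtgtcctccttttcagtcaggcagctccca
Pf4 (chr5:90772185-90772434, plus): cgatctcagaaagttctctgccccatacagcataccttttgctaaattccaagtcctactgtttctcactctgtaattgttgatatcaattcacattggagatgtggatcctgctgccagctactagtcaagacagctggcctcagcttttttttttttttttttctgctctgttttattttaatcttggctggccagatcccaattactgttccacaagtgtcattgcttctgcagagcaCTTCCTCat
F13a1 (chr13:37050245-37050494, minus): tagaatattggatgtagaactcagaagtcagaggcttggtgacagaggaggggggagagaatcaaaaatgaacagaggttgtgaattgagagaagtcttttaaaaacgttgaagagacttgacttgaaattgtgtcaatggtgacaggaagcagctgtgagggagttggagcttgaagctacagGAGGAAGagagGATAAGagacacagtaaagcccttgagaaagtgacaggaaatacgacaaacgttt
Cbr2 (chr11:120732022-120732271, minus): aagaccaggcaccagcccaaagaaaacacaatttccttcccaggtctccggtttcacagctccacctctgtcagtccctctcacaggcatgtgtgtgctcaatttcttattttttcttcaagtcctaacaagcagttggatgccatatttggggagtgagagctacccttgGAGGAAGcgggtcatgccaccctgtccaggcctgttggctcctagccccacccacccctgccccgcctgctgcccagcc
Stab1 (chr14:31168642-31168891, minus): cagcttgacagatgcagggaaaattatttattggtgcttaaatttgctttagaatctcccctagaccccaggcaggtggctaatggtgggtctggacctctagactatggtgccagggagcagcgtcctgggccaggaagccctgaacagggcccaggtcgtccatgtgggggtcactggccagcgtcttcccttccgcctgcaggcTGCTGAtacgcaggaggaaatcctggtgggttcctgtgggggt

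GAGGAAG on either strand was in the upstream windows of 4 of the 8 members with an entry (Mrc1, Pf4, F13a1 and Cbr2), and in 10.4% of 27025 windows of the same length, the top listed window of each gene. In Mrc1 it occurred at 2 places, starting 168 and 36 bases before the start, and in Pf4 at 9 bases before it. In Cbr2 it began 79 bases before the RefSeq start. That place lies inside the deposited span of Cbr2, so it is upstream of the RefSeq start only. TGCTGA was in the windows of Dab2 and Stab1, against 15.8% of all windows, GATAAG in that of F13a1, against 6.6%, and the AP-1 letters TGACTCA in none of the 8, against 4.43%. No motif overlapped another in these windows. A match of letters is a description of the sequence, and absence from this window says nothing of a factor.

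The deposited tables set STINGECKO 1 beside WT 3 and STINGECKO 2 beside WT 5, and for these genes the pairs differed. With a library at 0 reads set to the floor of 3 reads, 0 of the 9 genes were at least 4-fold lower in STINGECKO 1 than in WT 3 and 0 at least 4-fold higher, where 8.52% and 9.88% of all genes were. Cbr2, with 5 and 0 reads, is only bounded there and was not placed on either side of 4-fold. In the other pair 0 were at least 4-fold higher in STINGECKO 2 than in WT 5, against 7.0% of all genes, and 7 were at least 4-fold lower in STINGECKO 2 than in WT 5, where 21.8% of all genes were. Mrc1 in STINGECKO 1 was 1.12 times its level in WT 3 (95% exact binomial counting interval 0.980 to 1.28), and in STINGECKO 2 it was 0.0815 times its level in WT 5 (0.0739 to 0.0896). Lyve1 was 1.16 times WT 3 in STINGECKO 1 (1.02 to 1.31) and 0.00488 times WT 5 in STINGECKO 2 (0.00309 to 0.00733). Ms4a7 differed in direction between the pairs, with 2.74 times the level of WT 3 in STINGECKO 1 (2.00 to 3.80) and 0 reads in STINGECKO 2, at least 203-fold lower than WT 5 over a floor of 3 reads per library. Over the same floor Cd163 was at least 758-fold lower and Cbr2 at least 93.9-fold lower in STINGECKO 2 than in WT 5. Dab2 was lower in both pairs, at 0.717 (0.686 to 0.750) and 0.394 (0.376 to 0.414), as was Stab1 at 0.684 (0.661 to 0.706) and 0.925 (0.903 to 0.949). These intervals and bounds cover counting error between 2 libraries only, and say nothing of the spread between replicates.

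Libraries of the same genotype also differed. In WT 5, 7 of the 9 genes were at least 4-fold above WT 3, against 10% of all genes, and 0 at least 4-fold below it, against 6.26%. The median log2 ratio of the 9 was 3.25, against 0.04 over all genes. Cd163 was 83.3-fold higher in WT 5 than in WT 3 (57.1 to 127), Mrc1 11.9-fold (10.8 to 13.1), Ms4a7 10.4-fold (7.91 to 13.8), Lyve1 9.51-fold (8.66 to 10.5), F13a1 5.41-fold (5.02 to 5.83) and Pf4 4.58-fold (4.15 to 5.06). Dab2, at 1.14-fold (1.10 to 1.19), and Stab1, at 1.35-fold (1.32 to 1.39), moved little beside them. Between the STINGECKO libraries 2 of the 9, Lyve1 and Ms4a7, were at least 4-fold lower in STINGECKO 2 than in STINGECKO 1, where 19.3% of all genes were, and 0 were at least 4-fold higher, against 6.67%. Cd163 and Cbr2, at 0 reads in STINGECKO 2 against 7 and 5 in STINGECKO 1, are only bounded in that count. Lyve1 was at 0.0402 times STINGECKO 1 (0.0252 to 0.0610), whereas Mrc1 was at 0.865 (0.758 to 0.988) and Pf4 at 1.22 (1.03 to 1.44).

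**Figure D2:**
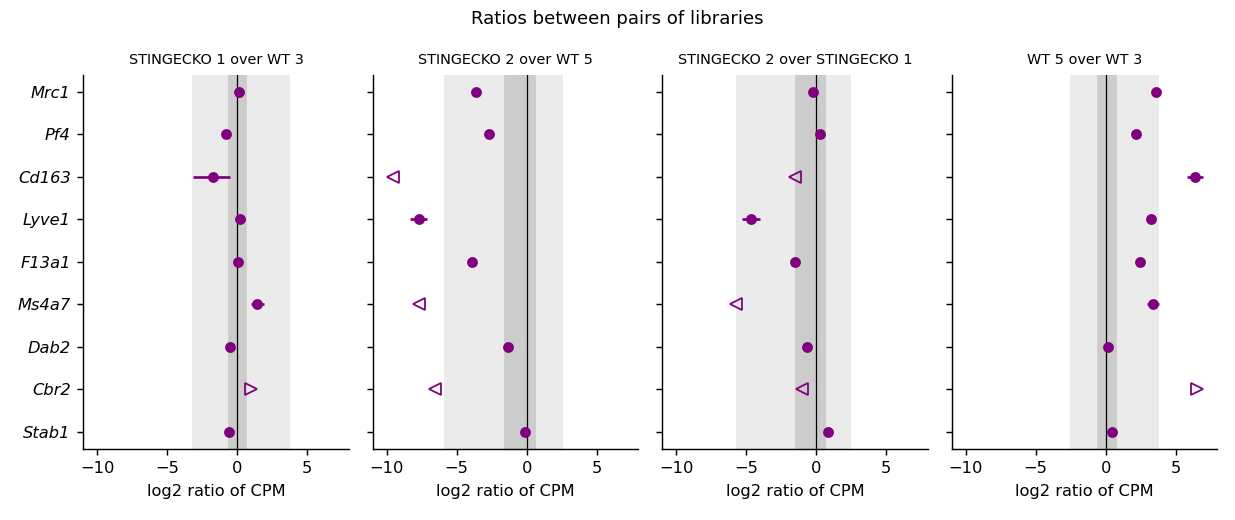
Log2 ratio of CPM for each gene in 4 pairs of libraries, with 95% counting intervals. Open triangles are bounds where a library had 0 reads, dark grey spans the middle 50% of all 14100 genes and light grey the 5th to 95th percentiles. In the STINGECKO 1 and WT 3 pair all 8 ratios and the bound of Cbr2 lie within the light grey. In the WT 5 and WT 3 pair 7 lie at or above a log2 ratio of 2. Of these, only Cd163 and the bound of Cbr2 lie beyond the light grey, which ends at 3.72, and the others lie within it.

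With all libraries, the genotype comparison gave no call among these genes. At a Benjamini-Hochberg adjusted p of 0.05, the quasi-likelihood test of edgeR called 0 of the 8 members that passed the filter on low counts and 0 of 13365 genes in all (0.0%), with 642 genes at an unadjusted p under 0.05. Cbr2 did not pass the filter, since only WT 5 reached it. The 8 tested members all had a log2 fold change below 0, as did 51.8% of all genes, and their median was -2.14, against -0.03 over all genes. The filter keeps a rare gene when at least 2 libraries, of whichever genotype, reach it. Cd163, with 7 and 0 reads in STINGECKO and 27 and 2155 in WT, passed it through the WT libraries alone. The contrast was also known when the genes were chosen, so that count and median are given without weight. Both STINGECKO libraries lay below both WT libraries in 3 of the 8 tested members, Pf4, Cd163 and Dab2, and in 19.0% of the 13365 genes.

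The log2 fold changes (STINGECKO over WT) were -2.63 (SE 1.12) for Mrc1, -2.09 (SE 0.83) for Pf4, -3.13 (SE 1.70) for Lyve1 and -2.20 (SE 0.95) for F13a1. Those of Cd163 and Ms4a7 were -8.11 (SE 2.73) and -2.05 (SE 2.51), and those of Dab2 and Stab1, the abundant members, -0.88 (SE 0.30) and -0.28 (SE 0.35). By DESeq2, 43 of 13365 genes were called lower in STINGECKO (0.322%). Cd163 was the only member past the threshold, with an adjusted p of 0.00243 in DESeq2. Its 4 libraries had 7, 0, 27 and 2155 reads, and it had passed the filter through WT alone, so this call is given without weight. Without WT 5, the fold changes of Mrc1 and Ms4a7 turned to 0.07 and 0.46, that of Cd163 was -2.68, that of Lyve1 -0.73, that of Pf4 -0.60, that of F13a1 -0.51 and that of Stab1 -0.04. Dab2 kept -0.77 without WT 5, and lay between -1.25 and -0.57 in the fits without each library. The median of the 8 was -0.56 without WT 5, and 6 of the 8 were below 0. Without STINGECKO 2, the library rich in zeros, 9 of 9 members tested were below 0, with a median of -2.18 against -0.04 over all genes. With 1 library in a genotype, 1 library at the minimum is enough for the filter. Cbr2 entered that fit through WT 5 alone, which fixed its direction, so the count is given without weight. Fold changes there were -2.52 for Mrc1, -2.23 for Pf4, -7.08 for Cd163 and -2.18 for Lyve1. Those of F13a1, Ms4a7 and Stab1 were -1.63, -1.04 and -0.78.

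**Figure D3:**
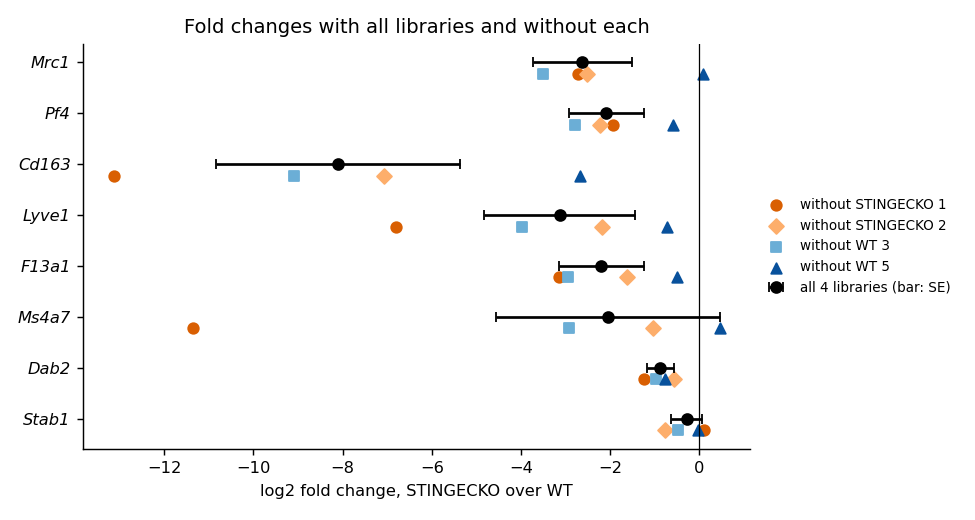
Log2 fold change of STINGECKO over WT for the 8 tested genes, with all 4 libraries (black, bars are SE) and without each library (coloured). The blue triangles, without WT 5, lie between -2.68 and 0.46, and those of Mrc1 and Ms4a7 are on the right of 0.

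The authors' deposited table of STINGECKO 2 and WT 5 marked 8 of the 9 genes as lower in STINGECKO 2, all but Stab1, where it marked 35.1% of its genes as lower, and 0 as higher (17.0% of its genes). The authors' deposited table of STINGECKO 1 and WT 3 marked Cd163 as lower (19.4% of its genes) and Ms4a7 and Cbr2 as higher in STINGECKO 1 (21.5% of its genes). Those marks compare 1 library with 1 library.

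Further border macrophage genes, from a list of 19 names that holds no member, were less uniform. Of the 13 tested, 0 passed in either direction, 1 was above 0 and 12 below 0, with a median log2 fold change of -1.11. Without WT 5 the median was 0.03, with 7 of 13 above 0, and without STINGECKO 2 it was -2.37. Slc40a1, the iron exporter, which brain endothelium also expresses, was at 494 and 472 CPM in STINGECKO and 475 and 549 CPM in WT, and made up most of the list's summed level. Without it the sum was 55.8 and 59.7 CPM in STINGECKO, and 70.6 and 173 CPM in WT 3 and 5. Cd209f, a C-type lectin, had 44 reads in STINGECKO 2 and 710 in WT 5, and at most 4 in STINGECKO 1 and WT 3. Ccl24, a chemokine, had 21 and 0 reads in STINGECKO and 39 and 325 in WT, and Clec10a, a lectin for galactose sugars, 15 and 0 reads in STINGECKO and 0 and 177 in WT. Tgfbi, a matrix protein, was not highest in WT 5, at 27.4 and 0.274 CPM in STINGECKO and 23.7 and 15.0 CPM in WT. Of the 13 list genes in both tables, 9 had their highest level in WT 5.

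Genes of macrophages of any kind were present in every library. Their 18 names summed to 728 and 613 CPM in STINGECKO, and 706 and 1495 CPM in WT 3 and 5, and 13 of the 18 were highest in WT 5. Of these, 0 passed in either direction, 3 were above 0 and 15 below 0, with a median log2 fold change of -0.90, which was -0.27 without WT 5. C1qa, a chain of complement C1q, was at 201 and 156 CPM in STINGECKO and 146 and 341 CPM in WT. Csf1r, the receptor on which brain macrophages depend, was at 90.0 and 21.8 CPM in STINGECKO and 86.5 and 225 CPM in WT, and Lyz2, a lysozyme, at 67.6 and 21.9 CPM in STINGECKO and 44.2 and 131 CPM in WT. C1qb and C1qc, the other chains of C1q, differed in order: C1qb was at 84.8 and 73.0 CPM in STINGECKO and 117 and 247 CPM in WT, while C1qc was at 56.4 and 69.5 CPM in STINGECKO and 10.8 and 50.9 CPM in WT. Laptm5, a lysosomal protein of blood cells, was at 149.7 and 142 CPM in STINGECKO and 198 and 233 CPM in WT. The summed level of the 7 members other than Stab1 and Dab2 was 0.153 and 0.0850 times that of this list in STINGECKO, and 0.154 and 0.620 times in WT 3 and 5.

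Microglia genes differed among themselves in their order of libraries, while their sum was highest in WT 5. The 11 names summed to 159.5 and 182 CPM in STINGECKO, and 209 and 271 CPM in WT. P2ry12, a purinergic receptor and defining marker of microglia, was lowest in WT 5, at 23.5 and 47.9 CPM in STINGECKO and 24.5 and 6.66 CPM in WT. Olfml3, a secreted matrix protein, was lowest there too, at 30.3 and 26.8 CPM in STINGECKO and 28.8 and 12.1 CPM in WT. Cx3cr1, the fractalkine receptor, was at 46.1 and 5.08 CPM in STINGECKO and 109 and 91.7 CPM in WT, and Fcrls, an Fc receptor-like protein, at 38.5 and 58.9 CPM in STINGECKO and 15.2 and 82.8 CPM in WT. Tmem119, another defining marker, was highest in WT 5, at 9.16 and 0 CPM in STINGECKO and 5.32 and 43.0 CPM in WT. Siglech, a sialic acid binding lectin, was highest in STINGECKO 2, at 0.273 and 37.1 CPM in STINGECKO and 4.90 and 0.482 CPM in WT. Of the 11, 0 passed in either direction, 4 were above 0 and 7 below 0, with a median of -0.82, and 5 were highest in WT 5. The median was -0.04 without WT 5.

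Other cells that carry some of the 9 transcripts were followed by their own markers. Megakaryocyte and platelet genes, 12 names, summed to 111 and 109.9 CPM in STINGECKO and 53.8 and 71.0 CPM in WT, and 0 of the 7 in both tables was highest in WT 5. Itga2b, the platelet integrin, was at 22.1 and 40.2 CPM in STINGECKO and 6.43 and 5.02 CPM in WT, and Ppbp, a chemokine of platelet granules, at 2.29 and 1.74 CPM in STINGECKO and 2.68 and 1.88 CPM in WT. Clec1b, a receptor of platelets, was at 51.4 and 55.0 CPM in STINGECKO and 41.7 and 50.1 CPM in WT. Gp1bb was at 7.96 and 12.7 CPM in STINGECKO and 3.05 and 10.3 CPM in WT. Gp9 and Gp5, like Gp1bb subunits of the platelet receptor for von Willebrand factor, had 0 reads in STINGECKO 2 and WT 3 and at most 25 reads elsewhere. Of 5 platelet genes tested, 0 passed, 4 were above 0 and 1 below 0, with a median of 0.42, which was 2.03 without WT 5 and 0.26 without STINGECKO 2.

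Lymphatic endothelium was marked by 8 names, of which Prox1, its master regulator, Ccl21a and Stab2 were in neither table and so had at most 4 reads in each library. The remainder summed to 117 and 178 CPM in STINGECKO and 163 and 178 CPM in WT, led by Flt4, a VEGF receptor that brain endothelium also expresses, at 75.3 and 119 CPM in STINGECKO and 102 and 80.6 CPM in WT. Itga9, an integrin, was at 20.6 and 24.8 CPM in STINGECKO and 33.3 and 48.6 CPM in WT, and Mmrn1, a multimerin that platelets also hold, at 20.9 and 16.1 CPM in STINGECKO and 27.2 and 48.7 CPM in WT. Pdpn had 8 and 0 reads in STINGECKO and 0 and 8 in WT, and Reln 0 and 395 in STINGECKO and 28 and 0 in WT. Of 4 tested, 0 passed, 2 were above 0 and 2 below 0, with a median of -0.38, which was -0.92 without STINGECKO 2. Fibroblast genes of the meninges, 12 names, were lowest in WT 5 in sum, at 320.1 and 295 CPM in STINGECKO and 273 and 229 CPM in WT, with 0 of 7 tested past the test, 3 above 0, 4 below 0 and a median of -0.45, which was 0.20 without WT 5 and 0.28 without STINGECKO 2. Col1a2 and Col3a1, fibrillar collagens, made up most of the fibroblast sum, and Col3a1 was at 122 and 139 CPM in STINGECKO and 119 and 78.8 CPM in WT. Of the 8 fibroblast genes in both tables, 1 was highest in WT 5. This was Slc6a13, with 41 and 0 reads in STINGECKO and 2 and 102 in WT. Lum had 1 read in STINGECKO 2 and 79 in WT 5, and at most 4 in STINGECKO 1 and WT 3. Choroid plexus genes, 8 names, summed to 10.5 and 8.23 CPM in STINGECKO and 5.69 and 27.3 CPM in WT, with Ttr, transthyretin, at 5.56 and 8.23 CPM in STINGECKO and 0.971 and 11.3 CPM in WT, and Aqp1, a water channel also made by red cells, at 0 and 0 reads in STINGECKO and 94 and 274 reads in WT. Of the 2 tested, 0 passed, with 1 above 0 and 1 below 0. Monocyte and neutrophil genes, 12 names, summed to 8.50 and 16.1 CPM in STINGECKO and 12.4 and 3.62 CPM in WT, with 0 of 3 tested past the test, 2 above 0 and 1 below 0. Neuron genes, 8 names, summed to 63.8 and 42.2 CPM in STINGECKO and 136 and 87.6 CPM in WT, and of 8 tested 0 passed, 1 was above 0 and 7 below 0, with a median of -1.37, which was -0.17 without WT 3. Astrocyte and radial glia genes, 8 names, summed to 60.6 and 10.2 CPM in STINGECKO and 123 and 85.7 CPM in WT, and of 7 tested 0 passed and 7 were below 0, with a median of -3.89, which was -2.88 without WT 5 and -2.90 without STINGECKO 2. How far any of these cells contributed to the 9 genes was not tested.

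**Figure D4:**
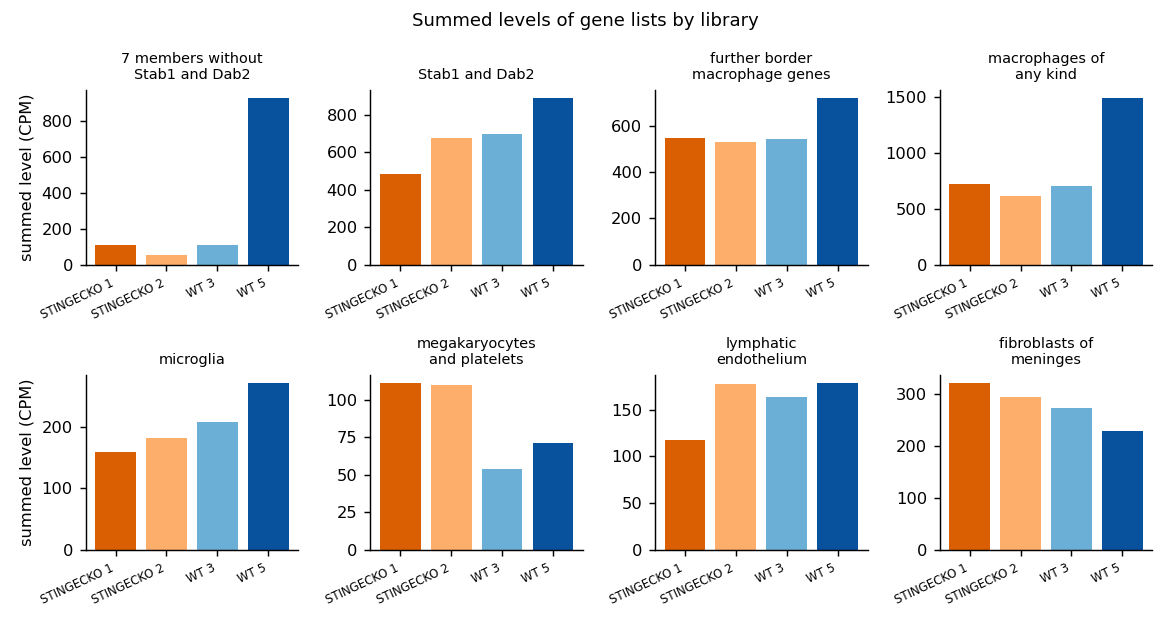
Summed level (CPM, axes from 0, a scale per panel) of gene lists in STINGECKO 1, STINGECKO 2, WT 3 and WT 5. The 7 members other than Stab1 and Dab2 reach 927 CPM in WT 5 and at most 111 CPM elsewhere, whereas megakaryocyte and platelet genes are at 71.0 CPM in WT 5 and 111 CPM in STINGECKO 1.

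Growth factors and transcription factors of macrophages gave mixed values. Of 13 tested, 0 passed, 4 were above 0 and 9 below 0, with a median of -0.31. The median was -0.19 without WT 5 and -0.57 without STINGECKO 2. Csf1 and Il34, the ligands of CSF1R, were at 80.1 and 85.9 CPM in STINGECKO and 23.4 and 57.6 CPM in WT, and at 20.1 and 30.6 CPM in STINGECKO and 29.0 and 22.8 CPM in WT. Csf1 was thus above both WT libraries in both STINGECKO libraries, with a log2 fold change of 1.03 (SE 0.54), without a call. That value was 1.83 without WT 5 and 0.99 without STINGECKO 2. Spi1, which encodes PU.1 and was picked with its values in view, was at 5.61 and 38.7 CPM in STINGECKO and 0.462 and 24.6 CPM in WT, highest in STINGECKO 2, where the 9 genes were mostly low. Tgfbr2, a TGF-beta receptor that endothelium also expresses, was at 416 and 548 CPM in STINGECKO and 588 and 604 CPM in WT.

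Among other scavenger and endocytic receptors, 0 of 9 tested passed, with 4 above 0, 5 below 0 and a median of -0.21, which was 0.16 without WT 5. Scarb1, a lipoprotein receptor, was at 479 and 376 CPM in STINGECKO and 554 and 541 CPM in WT. Ly75, a relative of the mannose receptor, was at 207 and 183 CPM in STINGECKO and 247 and 205 CPM in WT. Lrp1, a large endocytic receptor, was at 142 and 297 CPM in STINGECKO and 126 and 135 CPM in WT. Msr1, a macrophage scavenger receptor, was at 6.87 and 0 CPM in STINGECKO and 4.39 and 26.9 CPM in WT. Mrc2, of the mannose receptor family, was lowest in WT 5, at 29.1 and 47.8 CPM in STINGECKO and 16.9 and 7.48 CPM in WT. Relatives of the members by sequence family had 0 of 13 tested past the test, 3 above 0 and 10 below 0, with a median of -0.56, which was 0.27 without WT 5 and -1.05 without STINGECKO 2. Cbr1, a carbonyl reductase, was at 25.9 and 44.5 CPM in STINGECKO and 29.4 and 31.2 CPM in WT. Ms4a6b, which was picked with its values in view, was at 3.49 and 12.03 CPM in STINGECKO and 4.35 and 26.4 CPM in WT. Genes of haem and iron handling, which follow CD163 uptake, had 0 of 10 past the test, 5 above 0 and 5 below 0, with a median of 0.01, which was -0.19 without STINGECKO 2. Fth1, ferritin heavy chain, was at 5143 and 5812 CPM in STINGECKO and 5375 and 6186 CPM in WT. Hmox1, haem oxygenase, which was picked with its values in view, was at 87.6 and 32.1 CPM in STINGECKO and 105 and 99.4 CPM in WT.

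The genes nearest to the 9 in their pattern over the 4 libraries included macrophage genes. Among 6868 genes with a mean of at least 20 CPM and at least 5 reads in each library, likeness was the root mean square difference between log2 CPM centred on the gene's own mean and the median of the 9 members centred likewise. Fcgr3, an Fc receptor of macrophages, was nearest at 0.44, with 17.9 and 6.81 CPM in STINGECKO and 24.3 and 83.9 CPM in WT. It was nearer than all members but F13a1, at 0.31. Gulp1, an adaptor for uptake of dying cells, followed at 0.67, Sdc4, a heparan sulphate proteoglycan, at 0.67, and Csf1r at 0.72. Pex13, a peroxisomal import factor, was at 0.73, Nbeal2, a granule protein of platelets, at 0.74, Zkscan17 at 0.80 and Rab3gap1 at 0.83. Among the members Mrc1 lay at 0.51 and Pf4 at 0.64, and Cd163 was farthest at 2.05. With 4 libraries many genes share such a pattern, so this is a description of likeness and not of shared control.

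**Figure D5:**
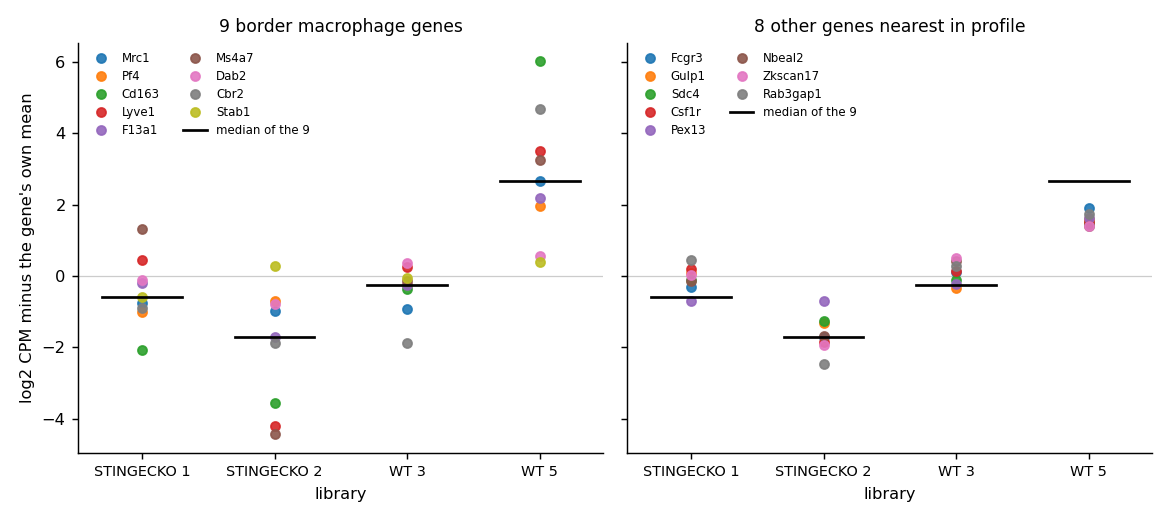
Log2 CPM minus the gene's own mean over the 4 libraries, for the 9 genes (left, with libraries of 0 reads set to 3 reads) and for the 8 other genes nearest to their median (right), which black bars show. The median of the 9 is 2.65 in WT 5 and -1.72 in STINGECKO 2, and Cd163 reaches 6.01 in WT 5 while Stab1 stays at 0.38.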

How the data were processed

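Per the submitters' processing notes, Bowtie2 2.2.3, TopHat2 2.0.12, HTSeq 0.6.0 and mm9 were used; the strand setting is not given. The authors deposited 2 tables of read counts per gene with CPM, in which a count of 0 is written as 0.5 read. The authors' fold column is the ratio of CPM, with its log2, and the authors' p-values compare 1 library with 1 library. Positions in the deposited tables equal those of GENCODE M21 (GRCm38) in 89.7% of matched genes and in all 9 members, although the notes name mm9. Tables were joined by gene identifier; a gene not listed in a table counts as at most 4 reads there. All columns of single libraries were assigned.

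Genotypes were compared with edgeR 4.0.16 in R 4.3.3 on the counts (filterByExpr, minimum count 10, TMM factors, quasi-likelihood test, Benjamini-Hochberg adjustment at 0.05 over 13365 genes), tested on simulated data. CPM here uses TMM-scaled library sizes, and RPKM also exon union lengths from GENCODE M21. Counting intervals and the floor of 3 reads cover counting error only. DESeq2 1.42.0, limma-voom (limma 3.58.1), the likelihood ratio test, other scalings, no filter, genes of either table, a block by table and fits without each library served as alternatives. The members and lists were chosen with earlier results of these data known. Text names all members, of each list the genes of highest mean CPM or defining markers at 0 reads, and the 8 nearest genes; Spi1, Ms4a6b and Hmox1 were picked with their values in view. Some genes stand in several lists. Some genes that the rule names are not reported here. Pericyte genes, with sums of 10180 and 10650 CPM in STINGECKO and 8303 and 7697 CPM in WT (8 of 9 tested above 0, median 0.34), and erythroid genes, with 1229 and 2853 CPM in STINGECKO and 2516 and 1314 CPM in WT (3 of 6 above 0, median 0.03), were followed as markers. List medians without each library were added after the data were seen.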

Additional observations from a re-analysis of the deposited data

How the results depend on the processing

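No paired analysis was possible because the labels give the genotypes no shared replicate number; a block by deposited table, which is no labelled pairing, was fitted instead. Under alternatives that kept all 4 libraries, all 72 fold changes of single members kept their direction, and 1 passed the threshold, Cd163 in DESeq2. Their sizes moved most in limma-voom and with the block by table, to -4.55 and -4.00 for Ms4a7, -1.71 and -1.73 for Mrc1, -3.91 and -3.61 for Lyve1 and -6.83 and -6.21 for Cd163. The number of genes called was 33 by the edgeR likelihood ratio test and 87 by DESeq2, against 0 by the edgeR quasi-likelihood test, limma-voom, a block by deposited table and in each fit without a library (at an unadjusted p under 0.05, 642 genes by the quasi-likelihood test, 273 with the block, 2668 without STINGECKO 1, 595 without STINGECKO 2, 162 without WT 3 and 243 without WT 5). Leaving out libraries moved the members most. The number below 0 ran from 6 (of 8, without WT 5) to 9 (of 9, with Cbr2 past the filter through WT 5 alone). Their median ran from -3.14 to -0.56. Fits without a library gave log2 fold changes of -3.51 to 0.069 for Mrc1, -11.35 to 0.46 for Ms4a7 and -0.78 to 0.092 for Stab1, reversed without WT 5 for Mrc1 and Ms4a7 and without STINGECKO 1 for Stab1. Over the same fits, added after the data were seen, list medians ran from -6.09 to 0.033 for further border macrophage genes, -1.86 to 0.475 for fibroblasts, -0.485 to 0.323 for erythroid cells, -0.010 to 0.079 for endothelium, -0.302 to 0.155 for scavenger receptors, -0.190 to 0.127 for haem and iron handling and -1.05 to 0.271 for sequence relatives. Causes of these shifts were not tested. Lyve1 ran from -6.81 (without STINGECKO 1) to -0.73 (without WT 5), and Cd163 from -13.13 to -2.68 in the same fits. Other scalings moved library ratios by at most 1.13-fold, with 6 of 108 outside their counting interval, all under scaling to endothelial genes, and 0 crossed 1. Values of a few reads or none, such as Cd163 and Cbr2 outside WT 5 and Lyve1 and Ms4a7 in STINGECKO 2, carry a large counting error. STINGECKO 2 had the most listed reads, 22169261, and also the most genes at 0 reads, 13.2% of those in both tables. The cause of its zeros was not tested.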
